A study of Mus musculus with 8 samples.

Results

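The Rspo3 fibroblasts of colon assembloid stroma are fibroblasts with transcripts of Rspo3, the gene of the secreted Wnt agonist R-spondin 3, and of the tetraspanin Cd81, a surface marker of trophocytes. They were chosen by measured values. Barcodes of the 2 stromal libraries were kept from 500 detected genes upward and up to 10% of UMIs from mitochondrial genes, and among them a member had at least 3 UMIs of Col1a2, no UMI of Epcam, at least 2 UMIs of Rspo3 and at least 3 UMIs of Cd81. It had a UMI of fewer than 2 of the 4 genes Bmp2, Bmp5, Bmp7 and Adamdec1, not of all 3 of Mfap5, Crabp1 and Gdf10, and of fewer than 3 of the 5 interferon-induced genes Ifit1, Ifit3, Rsad2, Cmpk2 and Usp18. Cells with at least 2 UMIs of both Mki67 and Top2a, genes of dividing cells, were left out. The rule found 3686 cells, 1497 in replicate 1 and 2189 in replicate 2, among 18068 passing stromal barcodes, 15558 Col1a2 fibroblasts and 77108 passing barcodes of all 8 libraries of the series.

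R-spondins bind LGR receptors on stem cells of the crypt and keep Wnt receptors at the cell surface, so that cells near the source respond more strongly to Wnt ligands. In the gut wall, trophocytes are CD34-positive, CD81-positive fibroblasts beneath the crypt base that make R-spondin 3 and the BMP antagonist gremlin 1. Telocytes are fibroblasts with high Pdgfra and Foxl1 that lie along the epithelium and make BMP ligands and non-canonical Wnt ligands. BMP signals drive crypt cells to differentiate, and BMP antagonists at the crypt base keep that signal low around stem cells.

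The study grew assembloids, droplets of Matrigel in which colon organoids and flask-cultured primary colon stromal cells of C57BL/6 mice form crypt-like structures, in medium from which noggin, R-spondin 1, the Wnt surrogate and the GSK3 inhibitor CHIR-99021 had been left out. The assembloids were dissociated and their EpCAM-negative cells, from 2 mice per the study's methods, were sequenced as 2 droplet single-cell libraries. The other 6 libraries held epithelial cells of assembloids, organoids and colon tissue, 2 of each. No genotype, treatment or time point separated the stromal libraries, both stromal samples had been expanded in serum-containing medium before assembly, and no stroma of colon tissue was among the libraries, so that all comparisons here lie between classes of cells within the same cultures. The stromal libraries held 164072756 and 141478777 UMIs, and their passing barcodes had a median of 15448.5 and 13246 UMIs. They shared 28 passing barcodes, of which 2 were members in both.

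The 3 other classes were cut from the same Col1a2 fibroblasts with the same limits on Epcam, interferon-induced genes and dividing cells. BMP-ligand fibroblasts had a UMI of at least 2 of Bmp2, Bmp5, Bmp7 and Adamdec1 and did not meet both the Rspo3 and the Cd81 limit (686 cells in replicate 1 and 906 in replicate 2). Mfap5 Crabp1 Gdf10 fibroblasts had a UMI of all 3 of these genes (51 and 39 cells). The other fibroblasts met none of these conditions (2884 and 2955 cells). The remaining 1955 and 2396 fibroblasts belonged to no class. These classes are ranges of measured UMIs and not cell types, and the members' boundary ran through many cells, since 537 members of replicate 1 (35.9%) and 640 of replicate 2 (29.2%) had exactly 2 Rspo3 UMIs.

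Members made up 16.6% of the passing barcodes of replicate 1 (95% exact binomial interval 15.8 to 17.4%) and 24.2% of those of replicate 2 (23.3 to 25.1%), a mean of 20.4% ± 5.37 (SD, n = 2). As a share of Col1a2 fibroblasts they were 21.2% and 25.8%. These intervals, like those of all shares of cells given here, cover counting error only, and the libraries differed by more than counting error. The share depends on depth and on the limit on Rspo3, since the same rule applied after thinning each cell to 5000 UMIs took a mean of 5.53%, and a limit of 4 Rspo3 UMIs took 9.27%. A median member had 14816 UMIs in replicate 1 and 12611 in replicate 2 against 12155 and 10979 for the other fibroblasts.

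The genes of the rule are described without a test. Rspo3 (ENSMUSG00000019880, chromosome 10, 29452416 to 29535867, minus strand of GRCm38) reached 236 and 314 CPM (counts scaled to a common library total) in the summed members of replicates 1 and 2, against 11.5 and 12.9 CPM in BMP-ligand fibroblasts, 39.4 and 81.2 CPM in other fibroblasts and 74.2 and 72.8 CPM in Mfap5 Crabp1 Gdf10 fibroblasts. A median member had 3 Rspo3 UMIs in both libraries, and the highest had 30 and 22. Cd81 (chromosome 7, 143052739 to 143067934, plus strand) lay at 637 and 564 CPM in members, 154 and 96.6 CPM in BMP-ligand fibroblasts, 534 and 388 CPM in other fibroblasts and 848 and 624 CPM, above members, in Mfap5 Crabp1 Gdf10 fibroblasts. Cells with at least 2 Rspo3 UMIs just under the Cd81 limit, with 2 Cd81 UMIs, had Grem1 at 1059 and 839 CPM (86 and 244 cells), and members just inside it, with 3 Cd81 UMIs, had 1278 and 938 CPM (134 and 294 cells).

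Whether the members carry the other transcripts known from trophocytes was asked of a list of 12 markers outside the rule. Against BMP-ligand fibroblasts, 8 of the 12 rose in members (Grem1, C3, Il33, Has1, Dpt, Ackr4, Cd34 and Fgf7), 3 fell (Ly6c1, Wnt2b and Ly6a), and Cxcl13 was not called, with a median log2 fold change of 1.05 over the list beside 0.03 over all genes tested. Sums of UMIs per library and class were fitted together with edgeR's quasi-likelihood test, with the library as a term, and a gene was called at a Benjamini-Hochberg adjusted p under 0.05 over 14132 genes. Over all of these genes 1938 were higher in members (13.7%) and 1870 lower (13.2%). Without the library term the test called 451 higher and 450 lower, and of the 11 called trophocyte markers C3, Cd34, Grem1 and Ly6c1 were called again. Set against BMP-ligand fibroblasts, 8 of the 12 markers thus moved in the direction of the label trophocyte-like, while Ly6a, Ly6c1 and Wnt2b went the other way. Grem1 had been given as a marker of the members beforehand, so that its rise is not independent of the label. The list itself was chosen with earlier results of these data known, so that the other markers are no independent support for the label either. Against the other fibroblasts only C3 and Dpt of the 12 were called.

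**Figure D1:**
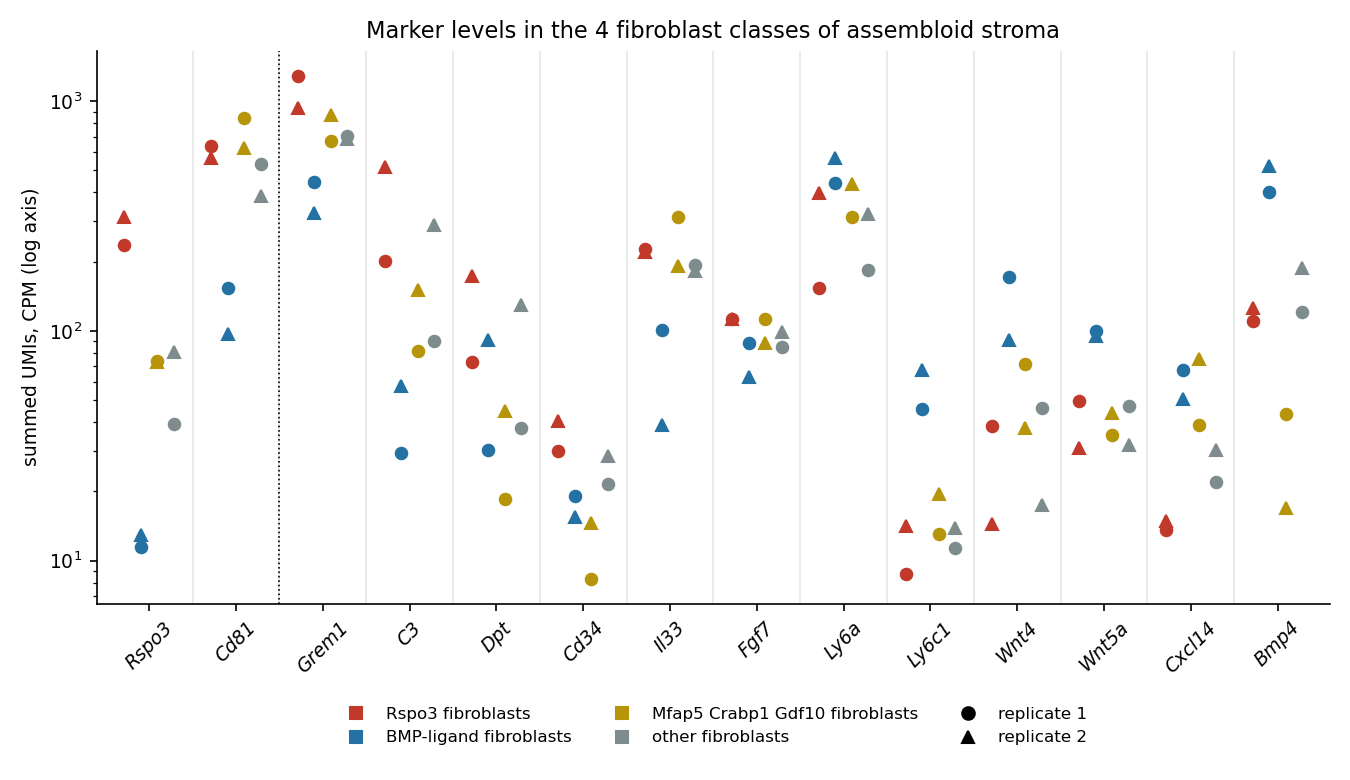
Summed UMIs in CPM (log axis) of Rspo3 and Cd81, which the rule used, left of the dotted line, and of 12 other markers in the 4 fibroblast classes, with a circle for replicate 1 and a triangle for replicate 2. Grem1 lies at 1287 and 931 CPM in Rspo3 fibroblasts, above every other class, while Bmp4, Wnt4 and Wnt5a are highest in BMP-ligand fibroblasts.

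Grem1 (ENSMUSG00000074934, chromosome 2, 113746164 to 113758646, minus strand), the secreted BMP antagonist that marks trophocytes, lay at 1287 and 931 CPM in members and at 446 and 327 CPM in BMP-ligand fibroblasts, without overlap. The log2 fold change was 1.52 ± 0.17 (SE, n = 2 libraries, adjusted p = 0.00012 by edgeR's quasi-likelihood test), and it was 1.53 within replicate 1 and 1.51 within replicate 2. C3 (ENSMUSG00000024164, chromosome 17, 57203970 to 57228136, minus strand), the central protein of the complement cascade, lay at 202 and 516 CPM in members against 29.5 and 57.5 CPM, a log2 fold change of 2.99 ± 0.16 (n = 2, adjusted p = 1.01e-06, edgeR). It was the list's steepest rise, and it was 2.74 and 3.14 within the libraries although replicate 2 held more C3 in every class. Cd34, a sialomucin of progenitor and adventitial cells (chromosome 1, 194938819 to 194961279, plus strand), was low, at 30.1 and 40.5 CPM against 19 and 15.4 CPM (log2 fold change 1.04 ± 0.15, adjusted p = 0.000711, edgeR, n = 2).

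The promoters of 4 genes that were higher in members are shown with short motifs that they hold, a motif of BMP-regulated factors in 3 and other motifs in 1. Whether the factors act on these promoters was not tested. Each runs from 250 bases before to 50 bases after the start in RefSeq (GRCm38.p6), 5′ to 3′ on the gene's own strand. Capitals in Grem1 (chr2:113758599-113758898, minus strand), Id2 (chr12:25096043-25096342, minus) and Id4 (chr13:48260866-48261165, plus) mark GGCGCC, a GC-rich element bound by BMP-regulated SMAD proteins. Capitals in C3 (chr17:57228087-57228386, minus) mark TTGCNNAA, the core of sites of C/EBP factors, and TATAAA, the letters of a TATA box. In C3 the TATAAA lies within the 50 bases after the stated start, whereas a TATA box lies before the start.
Grem1: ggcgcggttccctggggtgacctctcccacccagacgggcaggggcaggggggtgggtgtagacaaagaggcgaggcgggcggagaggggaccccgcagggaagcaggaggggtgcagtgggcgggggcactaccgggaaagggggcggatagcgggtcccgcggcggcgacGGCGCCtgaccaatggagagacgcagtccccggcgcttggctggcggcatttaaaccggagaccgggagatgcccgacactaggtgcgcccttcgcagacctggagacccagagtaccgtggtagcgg
Id2: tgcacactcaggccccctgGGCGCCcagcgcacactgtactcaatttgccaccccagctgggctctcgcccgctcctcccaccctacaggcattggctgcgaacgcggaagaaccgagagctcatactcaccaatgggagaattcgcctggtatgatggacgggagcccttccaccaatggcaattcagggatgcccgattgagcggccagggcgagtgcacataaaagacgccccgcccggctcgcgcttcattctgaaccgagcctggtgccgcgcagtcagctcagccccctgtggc
Id4: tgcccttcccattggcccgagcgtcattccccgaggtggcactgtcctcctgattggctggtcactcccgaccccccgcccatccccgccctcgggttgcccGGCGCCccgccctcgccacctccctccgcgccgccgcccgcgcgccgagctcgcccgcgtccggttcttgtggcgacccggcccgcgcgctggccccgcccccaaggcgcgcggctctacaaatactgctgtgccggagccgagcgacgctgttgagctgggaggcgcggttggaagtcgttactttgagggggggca
C3: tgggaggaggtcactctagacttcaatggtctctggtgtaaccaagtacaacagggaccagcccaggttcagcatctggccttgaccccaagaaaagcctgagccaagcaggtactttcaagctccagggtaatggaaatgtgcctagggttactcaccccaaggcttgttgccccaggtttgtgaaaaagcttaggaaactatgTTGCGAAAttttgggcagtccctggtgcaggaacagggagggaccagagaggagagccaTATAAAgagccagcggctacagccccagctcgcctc
Both strands were searched. GGCGCC stood in 11.9%, TTGCNNAA in 10.8% and TATAAA in 13.6% of the 32851 promoters of the table. The motifs were counted in 27 named genes that were higher in members than in BMP-ligand fibroblasts. These came from the trophocyte, BMP antagonist, BMP receptor and response, and complement and acute-phase lists and from the steepest rises named below. Genes that were higher in members but named only from other lists were not counted. Of the 27 genes, 21 had a promoter among the 32851. Of these 21, 4 (Chrd, Grem1, Id2 and Id4), 5 (C3, Dpt, Has1, Il33 and Ptx3) and 7 (Ackr4, Avpr1a, Bmpr1b, C3, Dpt, Il33 and Ogn) held the respective motif. A match is a run of letters and no measured binding.

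Il33, an alarmin of barrier tissues, had 226 and 221 CPM in members against 101 and 38.9 CPM in BMP-ligand fibroblasts (log2 fold change 1.77 ± 0.25, adjusted p = 0.000634, edgeR, n = 2). Its log2 fold change was 1.15 within replicate 1 and 2.47 within replicate 2. Fgf7, a fibroblast growth factor for epithelial cells, was at 113 CPM in both libraries against 88.5 and 62.9 CPM, a small difference (0.59 ± 0.14 on the log2 scale, adjusted p = 0.0107). Dpt, the matrix protein dermatopontin of universal fibroblasts, had 73.2 and 174 CPM against 30.2 and 91.1 CPM, groups that overlap between libraries and separate within each (log2 fold change 1.10 ± 0.12, adjusted p = 0.000102). Ly6c1, a surface protein shared with endothelial and adventitial cells, fell most of the list, from 45.5 and 67.5 CPM in BMP-ligand fibroblasts to 8.71 and 14.1 CPM in members (log2 fold change -2.31 ± 0.10, adjusted p = 3.74e-07). Ly6a, which encodes the progenitor antigen SCA-1, was at 153 and 397 CPM in members against 438 and 563 CPM (-0.99 ± 0.19, adjusted p = 0.00349). Within replicates 1 and 2 its log2 fold change was -1.51 and -0.50. Ackr4, a scavenging chemokine receptor used to sort trophocytes, was at 13.3 CPM in replicate 1 and 2.94 CPM in replicate 2 and thus differed more between the libraries than between the classes.

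Shares of cells with a UMI were compared at equal depth. After each cell was thinned to 5000 UMIs, which left out 3 and 8 members with fewer, Grem1 had a UMI in 89.8% and 82.4% of members, 66.8% and 58.8% of BMP-ligand fibroblasts and 76.1% and 75.1% of other fibroblasts. In the 51 and 39 Mfap5 Crabp1 Gdf10 fibroblasts it was 72.5% and 87.2%, in replicate 2 above the members' share. Without thinning the members' shares were 96.6% and 92.7%. In barcodes with glia markers and fewer than 3 Col1a2 UMIs (median depth 6983.5 and 7552 UMIs), which should lack the gene, the thinned shares were 13.6% and 6.15%, and in those with neuron markers 14.6% and 7.81%. The Col1a2 limit left out barcodes with more fibroblast RNA, so that these shares can understate free RNA. C3 had a UMI in 39.0% and 69.3% of thinned members, in 22.8% and 48.6% of other fibroblasts and in at most 10.2% of glia- or neuron-marker barcodes. Cd34 had a UMI in 12.4% and 16.9% of thinned members, and in none of the thinned glia- or neuron-marker barcodes (upper exact binomial limits 2.84 to 5.52%). It had one in 9.37% and 11.7% of thinned other fibroblasts, not far below members. In the 17 and 34 thinned endothelial-marker barcodes the Cd34 share was 17.6% and 14.7%. Most members had no Cd34 UMI, also without thinning (27.3% and 32.4% had one).

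**Figure D2:**
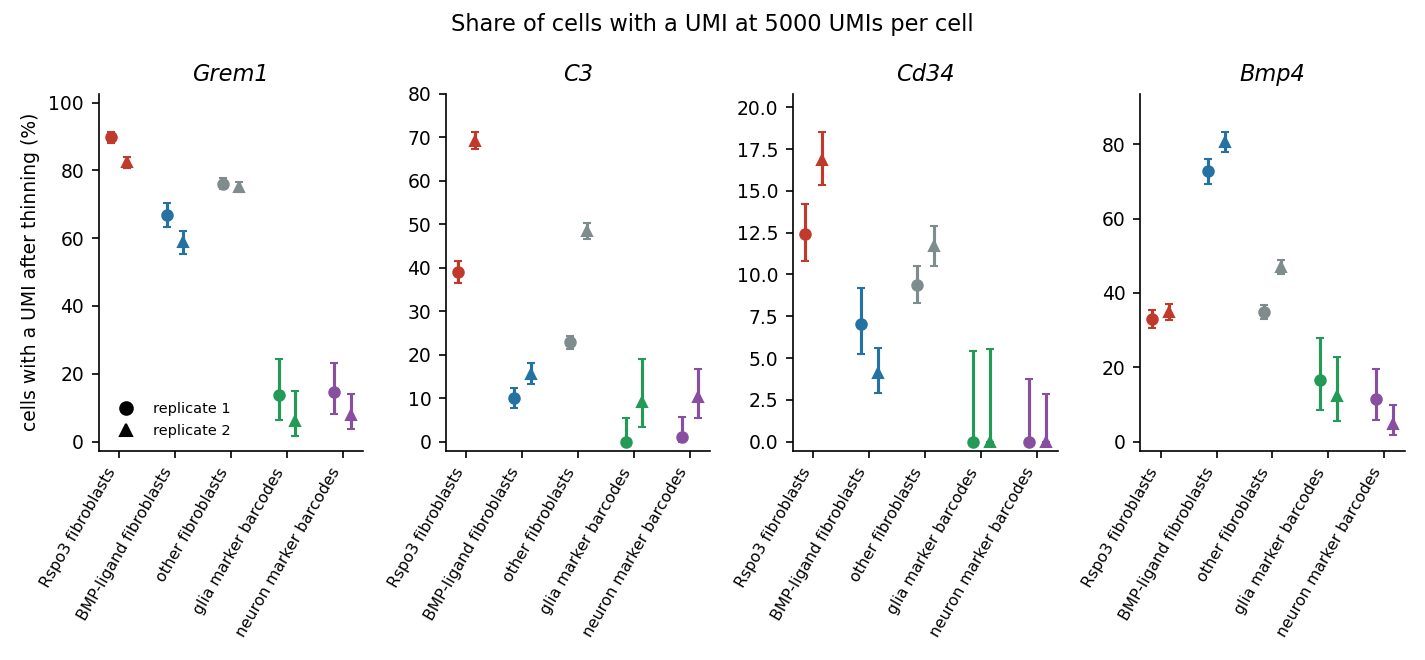
Percent of cells with at least 1 UMI of Grem1, C3, Cd34 or Bmp4 after thinning to 5000 UMIs per cell, by class, with a circle for replicate 1, a triangle for replicate 2 and bars for the 95% exact binomial interval, which covers counting error only. Grem1 was in 89.8% and 82.4% of Rspo3 fibroblasts and 13.6% and 6.15% of glia-marker barcodes, and Bmp4 in 32.9% and 34.8% of Rspo3 fibroblasts and 72.8% and 80.7% of BMP-ligand fibroblasts.

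Telocyte markers went the other way. Of 13 tested telocyte markers outside the rule, 8 fell in members against BMP-ligand fibroblasts (Foxl1, Sox6, Wnt4, Cxcl14, Foxf2, Pcsk6, Wnt5a and Foxf1) and F3 rose, with a median log2 fold change of -1.31. Of all genes tested, 13.7% were higher and 13.2% lower. The BMP-ligand class was cut by transcripts of BMP ligands, which telocytes make, so that these falls are not independent of the cut. Foxl1, the forkhead factor that defines telocytes, had 2 and 7 UMIs in all members and 65 and 115 UMIs in all BMP-ligand fibroblasts, or 0.0788 and 0.239 CPM against 5.91 and 8.26 CPM (adjusted p = 1.56e-05, edgeR). It was thus near 0 in members and low in the other class too, with a UMI in 2.63% and 3.77% of thinned BMP-ligand fibroblasts. Pdgfra, high in telocytes, did not separate the classes, at 228 and 286 CPM in members and 208 and 243 CPM in BMP-ligand fibroblasts (adjusted p = 0.124). F3, tissue factor, had 30 and 43.3 CPM in members against 20.3 CPM in both libraries (log2 fold change 0.85 ± 0.11, adjusted p = 0.000427). Without the library term, 7 of these 9 calls remained, Wnt4 and Pcsk6 being lost. Against other fibroblasts 2 of the 13 were called, Bmp3 and Npy, both lower.

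Among Wnt ligands and R-spondins other than Rspo3, members stood low. Of 10 tested genes none was higher and 8 were lower than in BMP-ligand fibroblasts (Rspo1, Rspo4, Wnt2, Wnt2b, Wnt4, Wnt5a, Wnt5b and Wnt6), with a median log2 fold change of -1.50, and 8 further ligands were too low to be tested. Wnt4 had 38.4 and 14.4 CPM in members and 172 and 91.6 CPM in BMP-ligand fibroblasts (log2 fold change -2.40 ± 0.12, adjusted p = 8.76e-07, edgeR, n = 2). Wnt5a, a non-canonical ligand, had 49.5 and 30.8 CPM against 99.3 and 94.5 CPM (-1.31 ± 0.14, adjusted p = 9.96e-05). Both genes were separated between classes in each library. Rspo1 was at 6.35 and 6.38 CPM against 12.2 and 24.2 CPM (-1.49 ± 0.21, adjusted p = 0.000578). Without the library term only Wnt5a and Wnt5b of the 8 were called. Wnt receptors and targets moved mostly upward, with 10 of 17 higher (Axin2, Nkd1, Nkd2, Lgr4, Lgr5, Fzd2, Fzd4, Fzd7, Lrp6 and Ror2) and Lef1 and Tcf7 lower, at a median of 0.63, though 8 of these 12 calls remained among cells of matched depth and 2 without the library term. Lef1 went from -1.81 to -0.19 at matched depth (adjusted p = 0.82). Lgr5 had 35 and 25 UMIs in all members and 3 in all BMP-ligand fibroblasts of each library, and lost its call with DESeq2 (2.15, adjusted p = 0.0567). Nkd2, a feedback inhibitor of Wnt signalling, had 8.24 and 11.4 CPM against 4.27 and 4.09 CPM (1.23 ± 0.21, adjusted p = 0.00199). Of 11 tested Wnt inhibitors Sfrp2 and Kremen1 rose and Dkk2, Dkk3 and Apcdd1 fell, Dkk2 alone without the library term too. Over all genes 13.7% were higher and 13.2% lower. At matched depth Kremen1 (0.25, adjusted p = 0.342), Apcdd1 (-0.30, adjusted p = 0.475) and Dkk3 (-0.34 against -0.32, adjusted p = 0.0709) lost their calls. Dkk2, an antagonist of LRP co-receptors, went from 76.1 and 68.6 CPM in BMP-ligand fibroblasts to 20.3 and 11.7 CPM in members (-2.21 ± 0.13, adjusted p = 2.85e-06). Against other fibroblasts none of the 17 Wnt receptors and targets and none of the 11 inhibitors was called.

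BMP antagonists rose more often than they fell. Of 14 tested, 6 rose in members against BMP-ligand fibroblasts (among them Grem1, Chrd, Fstl1, Mgp and Bmper), Nog and Nbl1 fell and 6 were not called, at a median of 0.38. Over all genes 13.7% were higher and 13.2% lower, so that the falls were near the general share. Mgp, matrix Gla protein, had 827 and 857 CPM in members against 193 and 123 CPM (log2 fold change 2.47 ± 0.22, adjusted p = 2.5e-05, edgeR, n = 2). Bmper, a BMP-binding protein of the crossveinless family, had 26.6 and 29.4 CPM against 4 and 2.37 CPM (3.18 ± 0.21, adjusted p = 4.28e-06). The 2 libraries of members differed little in either gene and lay far above both libraries of the other class. Nog, the noggin gene, was at 1.18 and 2.8 CPM against 5.09 and 5.03 CPM (-1.38 ± 0.32, adjusted p = 0.0109), a call that was lost at matched depth (-0.88, adjusted p = 0.2). Without the library term Bmper, Chrd, Grem1 and Mgp kept their calls.

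Of the BMP ligands outside the rule, Bmp4 fell and Bmp6 rose among 6 tested, beside 13.2% lower and 13.7% higher over all genes. The BMP-ligand class was cut by transcripts of other BMP ligands, so that the fall of Bmp4 is not independent of the cut. Bmp4 had 110 and 126 CPM in members and 402 and 521 CPM in BMP-ligand fibroblasts (log2 fold change -1.96 ± 0.17, adjusted p = 2.2e-05, edgeR, n = 2), and the members' libraries lay close together. Bmp6 had 3.43 and 8.23 CPM against 1.45 and 1.29 CPM (2.08 ± 0.31, adjusted p = 0.000803). Receptors and response genes of the pathway were more often higher than lower, with 8 of 16 higher (Bmpr1b, Bmpr2, Id1, Id2, Id3, Id4, Smad9 and Msx1) and Acvrl1 lower. Id4, an inhibitor of helix-loop-helix factors that BMP signals induce, had 41.4 and 65.7 CPM in members against 7 and 13.4 CPM (2.41 ± 0.16, adjusted p = 3.54e-06). Id2 had 65.8 and 182 CPM against 18 and 40.3 CPM (2.05 ± 0.17, adjusted p = 1.46e-05). Bmpr1b, a type I BMP receptor, had 8.59 and 9.69 CPM against 2.36 and 0.934 CPM (2.53 ± 0.30, adjusted p = 0.000166). All 3 were separated between the classes in each library. Id transcripts were thus higher in members than in BMP-ligand fibroblasts, which had less Grem1 and more Bmp4 transcript. Of these 9 calls 5 remained without the library term (Acvrl1, Bmpr1b, Bmpr2, Id1 and Id4). Against other fibroblasts none of the 16 was called. Id4 had 25.5 and 47.2 CPM there (adjusted p = 0.0795, edgeR) and Id2 had 50.5 and 142 CPM (adjusted p = 0.513).

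**Figure D3:**
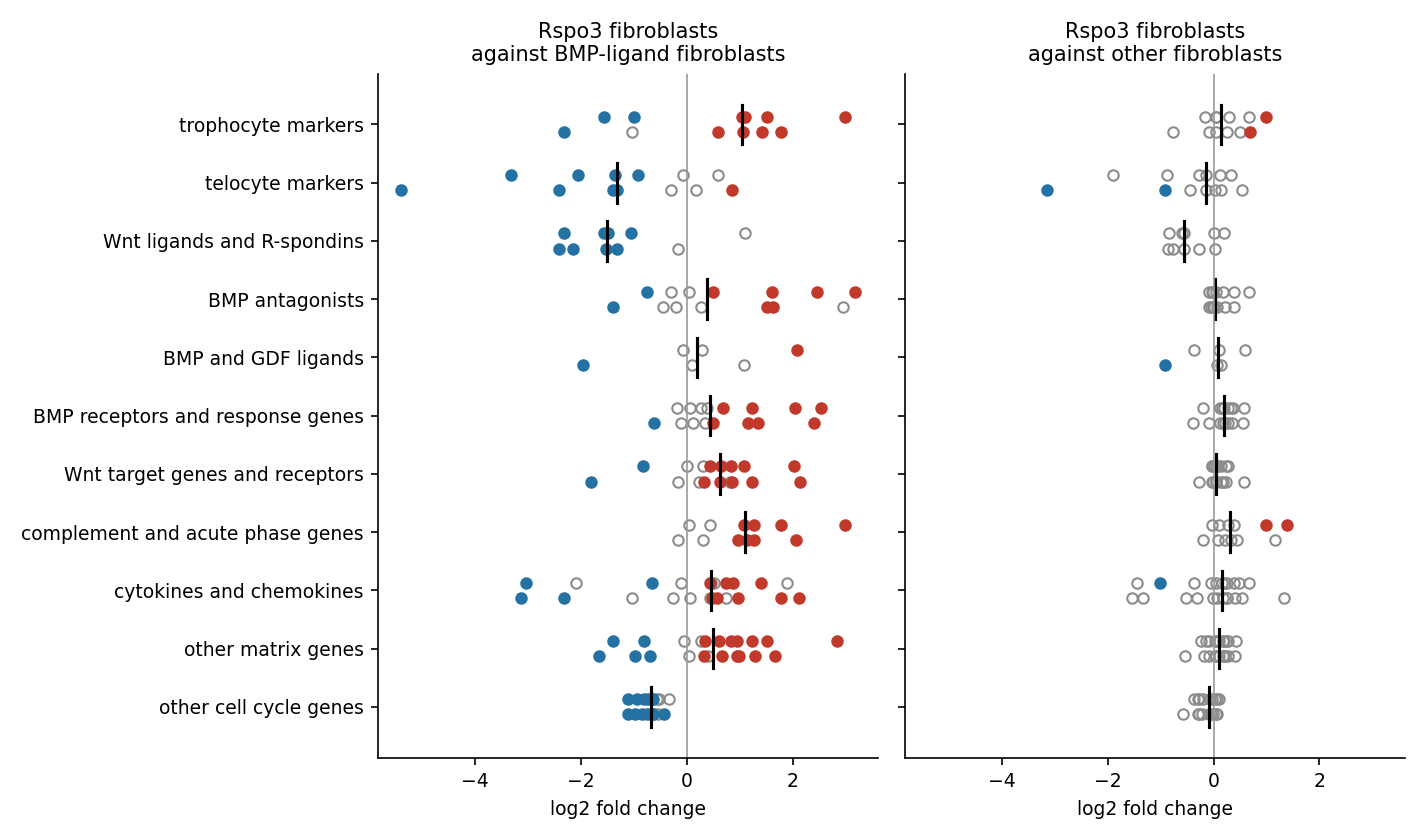
Log2 fold changes of Rspo3 fibroblasts against BMP-ligand fibroblasts (left) and other fibroblasts (right), 1 dot per tested gene of 11 lists, red where called higher, blue where called lower and open where not called, with a black bar at the list's median. The median of the trophocyte markers is 1.05 on the left and 0.15 on the right, where 2 of the 12 are called.

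Complement and acute-phase genes moved one way, with 8 of 12 higher in members (C3, C4b, C1s1, C1ra, Cfb, Cfi, Saa3 and Hp), none lower and a median of 1.11. Of all genes tested, 13.7% were higher and 13.2% lower. Hp, haptoglobin, had 252 and 387 CPM against 87.7 and 94.5 CPM (log2 fold change 1.78 ± 0.14, adjusted p = 1.09e-05, edgeR, n = 2). Cfb, complement factor B, had 3.63 and 18.5 CPM against 0.909 and 4.45 CPM (2.06 ± 0.18, adjusted p = 2.08e-05) and overlapped between libraries. C1s1, C3 and Hp were called without the library term. Of 21 tested cytokines and chemokines 9 rose and 4 fell, of which 5 (Ccl11, Ccl8, Cxcl16, Cxcl5 and Il6) were called without the library term. Cxcl5, a neutrophil-attracting chemokine, had 730 and 855 CPM in members against 189 and 174 CPM (2.13 ± 0.17, adjusted p = 1.24e-05). Ccl11, the eosinophil attractant eotaxin, had 475 and 394 CPM in members against 4046 and 3530 CPM (-3.13 ± 0.10, adjusted p = 6.37e-08), and Ccl8 moved in the same direction (-3.02 ± 0.14). Cxcl5 and Ccl11 were thus high in different classes in both libraries.

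Matrix genes moved in both directions. Of 22 tested non-collagen matrix genes 13 rose and 5 fell, and of 18 collagens 4 rose and 7 fell, a difference between the lists that was not tested. The shares over all genes tested were 13.7% higher and 13.2% lower. Without the library term 8 of the 18 matrix calls and 5 of the 11 collagen calls remained, Col18a1, Col15a1 and Ogn among them. The interstitial collagens Col3a1 (3812 and 6191 CPM against 1862 and 2441 CPM, log2 fold change 1.19 ± 0.09, adjusted p = 1.26e-05, edgeR, n = 2) and Col1a1 (0.93 ± 0.09) were higher in members. Col18a1 and Col15a1, which lie at basement membranes, were lower, Col18a1 at 196 and 114 CPM against 582 and 629 CPM (-2.01 ± 0.17, adjusted p = 1.99e-05). Ogn, the small proteoglycan osteoglycin, had 61.7 and 157 CPM against 11.3 and 18.2 CPM (2.85 ± 0.23, adjusted p = 1.33e-05). Of 20 proteases and inhibitors 8 rose and 5 fell, and 5 of these 13, Mmp3 included, were called without the library term. Mmp3, stromelysin 1, had 1346 and 1106 CPM in members against 221 and 209 CPM (2.51 ± 0.09, adjusted p = 1.31e-07), and its groups lay far apart in both libraries.

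Growth factors for the epithelium were mixed, with 6 of 20 higher and 8 lower, of which Fgf2, Igf1, Nrg1 and Vegfd were called without the library term. For these and the Hedgehog genes below, the shares over all genes tested were 13.7% higher and 13.2% lower. Nrg1, the ERBB ligand neuregulin 1, had 231 and 145 CPM in members against 647 and 589 CPM in BMP-ligand fibroblasts (log2 fold change -1.76 ± 0.11, adjusted p = 3.65e-06, edgeR, n = 2), and the EGFR ligand Areg was also lower (-1.57 ± 0.17, adjusted p = 9.33e-05). Vegfd, a ligand of lymphatic vessels, was higher, at 22.9 and 47.3 CPM against 7 and 6.39 CPM (2.38 ± 0.20, adjusted p = 1.77e-05). Of 13 tested Hedgehog response genes, the co-receptor genes Gas1, Boc and Cdon were higher, Ptch1, Foxf1, Foxf2 and Foxl1 were lower and 6 were not called, at a median of 0.01, and all 7 calls held without the library term. Ptch1, the receptor and a target of the pathway, had 43.4 and 49.2 CPM in members against 112 and 115 CPM (-1.29 ± 0.08, adjusted p = 3.6e-06). The 2 libraries of each class were close together in this gene.

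TGF-beta genes rose in 6 and fell in 3 of 15 cases, in medium that held an inhibitor of TGF-beta receptors, and 5 of the 9, with Tgfbr3 and Tgfbi, were called without the library term. Tgfbr3, the co-receptor betaglycan, had 101 and 144 CPM against 39.9 and 49.1 CPM (1.45 ± 0.10 on the log2 scale, adjusted p = 4.6e-06, edgeR, n = 2). Tgfbi, a TGF-beta-induced matrix protein, had 39 and 22.5 CPM against 161 and 141 CPM (-2.34 ± 0.17, adjusted p = 6.99e-06). Contractile genes rose in 3 and fell in 3 of 15 cases, beside 13.7% and 13.2% of all genes, and the rises of Tagln and Myl9 were lost at 4 or more Rspo3 UMIs (0.94 and 0.30 against 1.25 and 0.57 otherwise, adjusted p = 0.0719 and 0.169). Tagln also lost its call with DESeq2 (1.25, adjusted p = 0.381). Myl9 also lost its call without the 6% of cells with the most UMIs (0.52, adjusted p = 0.109, edgeR). Of the 13 tested genes of PI16-positive adventitial fibroblasts 6 rose and 5 fell. Immediate early genes, which mark dissociation stress, rose in 6 and fell in 2 of 18 cases, and none of these 8 calls remained without the library term. Hypoxia and glycolysis genes fell in 3 of 17 cases, cholesterol synthesis genes in 3 of 16, and prostaglandin genes rose in 2 and fell in 2 of 9, beside 13.2% lower and 13.7% higher over all genes. Interferon-stimulated genes outside the rule rose in 3 and fell in 2 of 14 cases, and the calls of Irf7, Stat2 and Zbp1 were lost at matched depth (log2 fold changes 0.41, 0.33 and -0.27 against 0.45, 0.51 and -0.36 otherwise, adjusted p = 0.0948, 0.0574 and 0.0926). Cell cycle genes outside the rule fell in 14 of 18 cases and rose in none, at a median of -0.66, although the limit on Mki67 and Top2a was the same in both classes. Mcm5, a subunit of the replicative helicase, had 15.6 and 11.7 CPM in members against 27.5 and 30.6 CPM (-1.11 ± 0.16, adjusted p = 0.000625). At matched depth 10 of the 14 remained, and without the library term Mcm2, Mcm3, Mcm5 and Mcm6.

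Beyond the lists, the steepest rises against BMP-ligand fibroblasts among well-measured genes were Chodl, a C-type lectin-like membrane protein, and Ebf1, a transcription factor of perivascular and adipogenic stroma. Chodl had 51.1 and 82.2 CPM against 5.82 and 6.53 CPM (log2 fold change 3.43 ± 0.28, adjusted p = 1.65e-05, edgeR, n = 2). Ebf1 had 64.3 and 138 CPM against 11 and 13 CPM (3.03 ± 0.17, adjusted p = 1.55e-06). Next after C3 came Penk, the enkephalin precursor (2.94 ± 0.30), Ogn, Avpr1a, a vasopressin receptor (2.74 ± 0.15), Dpep1, a membrane dipeptidase (2.71 ± 0.27), Ptx3, a soluble pattern recognition protein (2.67 ± 0.20), Arxes1 (2.66 ± 0.20) and Ifi204 (2.54 ± 0.11). The last 2 have close relatives in the genome between which counting can split reads. The deepest falls were the chemokine Ccl12, which had 6.62 and 3.45 CPM against 174 and 115 CPM (-4.85 ± 0.22, adjusted p = 4.28e-07), and the carbonic anhydrase Car3, which had 3.15 and 9.69 CPM against 43.7 and 143 CPM (-3.84 ± 0.11, adjusted p = 3.78e-08). Tbx2, a T-box repressor (-3.46 ± 0.11), Aldh1a2, the retinoic acid synthase (-3.42 ± 0.25), Rhox5 (-3.24 ± 0.18), Ppp1r14a, an inhibitor of myosin phosphatase (-3.04 ± 0.11), Igfbp5 (-2.96 ± 0.29) and Ces1f, a carboxylesterase (-2.93 ± 0.17), followed together with Ccl11 and Ccl8. That the classes do not overlap in these genes was a condition for naming them.

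Against the other fibroblasts, which share the members' culture but missed the Rspo3 or Cd81 limit, few genes separated. Of 14132 genes 18 were higher in members (0.127%) and 62 lower (0.439%), while without the library term none was (57 and 219 at an unadjusted p under 0.05), and DESeq2 called 18 and 58. These comparisons use the same sums of members as the ones above. Of the 12 trophocyte markers C3 and Dpt rose and none fell, at a median of 0.15 beside 0.01 over all genes. C3 had 202 and 516 CPM in members and 90 and 288 CPM in other fibroblasts (log2 fold change 0.99 ± 0.14, adjusted p = 0.0122 by edgeR's quasi-likelihood test, n = 2), and it was 1.16 and 0.84 within the libraries. Dpt had 73.2 and 174 CPM against 37.6 and 130 CPM (0.68 ± 0.11, adjusted p = 0.0285), a call that was lost among cells with at most 5% mitochondrial UMIs (0.65, adjusted p = 0.0551). In both genes the classes overlapped across libraries and members were higher within each. Of the telocyte markers Bmp3, at 18 and 6.69 CPM against 33.9 and 12.8 CPM (-0.92, adjusted p = 0.00232), and Npy fell. Neither separated members from BMP-ligand fibroblasts, where Bmp3 had 18.4 and 7.25 CPM. Npy had 0.909 and 0.431 CPM in BMP-ligand fibroblasts and 1.06 and 0.887 CPM in members. None of the 14 tested BMP antagonists and none of the 10 tested Wnt ligands and R-spondins was called against other fibroblasts, by this test or without the library term.

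Grem1 was at 1287 and 931 CPM in members and 702 and 686 CPM in other fibroblasts, without overlap, but did not pass (log2 fold change 0.66 ± 0.16, adjusted p = 0.155, edgeR, n = 2). It passed among cells of matched depth (0.76, adjusted p = 0.0189), among members with at least 4 Rspo3 UMIs (0.88, adjusted p = 0.0494) and when weakly expressed genes were kept in the fit (0.67, adjusted p = 3.53e-07). Cd34, at 30.1 and 40.5 CPM against 21.5 and 28.5 CPM, passed under the last of these alone (0.50, adjusted p = 0.00012, against 0.181 otherwise).

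The complement and acute-phase list gave 2 calls against other fibroblasts, C3 and Lcn2. Lcn2, lipocalin 2, which sequesters bacterial siderophores, had 163 and 32.3 CPM in members against 45.8 and 17.5 CPM (log2 fold change 1.38, adjusted p = 0.0193, edgeR) and was named after its values were seen. Of genes named by the rule, Trp53inp1, a p53-induced autophagy factor (0.61 ± 0.08, adjusted p = 0.0102), and Ephx1, an epoxide hydrolase (0.41 ± 0.07, adjusted p = 0.0362), were higher. Both calls were lost among cells with at most 5% mitochondrial UMIs (0.69 and 0.44, adjusted p = 0.072 and 0.0834), and that of Ephx1 also at matched depth (0.40, adjusted p = 0.118). Of the 10 genes named as lowest against BMP-ligand fibroblasts, Car3, Tbx2, Ppp1r14a and Ccl11 were also lower here and the other 6 did not pass, Ccl12 among them (adjusted p = 0.0795). Car3 was at 3.15 and 9.69 CPM against 11.8 and 30.7 CPM (-1.76 ± 0.11, adjusted p = 0.00021), Tbx2 at 8.75 and 7.1 CPM against 19.5 and 18.8 CPM (-1.28 ± 0.11, adjusted p = 0.000941) and Ccl11 at 475 and 394 CPM against 848 and 887 CPM (-1.01 ± 0.10, adjusted p = 0.00158). Both comparisons use the same members, so that these values are not independent.

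RNA of other cell types moved with this comparison. Of the 62 genes lower in members, 5 were among the 8 tested neuron markers (among them Elavl4, Tubb3, Uchl1 and Stmn2) and 5 among the 7 tested immune markers (Lyz2, C1qa, C1qb, Tyrobp and Fcer1g). The neuron markers summed to 23.9 and 23.7 CPM in members and 60.1 and 71.6 CPM in other fibroblasts, and the immune markers to 7.84 and 9.11 CPM against 28.1 and 82.3 CPM, with Ptprc at 0 in members of both libraries. Their part in the other calls of this comparison was not tested. Glia markers summed to 4.22 and 3.24 CPM in members against 7.14 and 6.86 CPM in other fibroblasts. Endothelial markers summed to 38.8 and 29.7 CPM against 37.4 and 67.3 CPM, and markers of interstitial cells of Cajal and pericytes to 370 and 280 CPM against 327 and 280 CPM, of which in members Kcnj8 made up 177 and 141 CPM. Mesothelial markers summed to 6.03 and 3.79 CPM against 9.17 and 7.22 CPM, with Upk3b, Upk1b and Lrrn4 at 0. Epithelial markers summed to 89.9 CPM in replicate 1 and 13.5 CPM in replicate 2 against 94.6 and 26.1 CPM in other fibroblasts, close in replicate 1 and lower in replicate 2, and Krt20 was at 0. Against BMP-ligand fibroblasts, 4 of 8 tested Cajal cell and pericyte markers were higher (Etv1, Notch3, Kcnj8 and Abcc9) and Rgs5 was lower, beside 13.7% higher and 13.2% lower over all genes. Of the other lists Lyz2 and Wt1 were higher there, Tubb3, Egfl7, Krt18 and Nkain4 were lower, and no glia marker was called.

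The Mfap5 Crabp1 Gdf10 fibroblasts, 51 and 39 cells with a median of 18802 and 19589 UMIs, were too few for genes of low level. Against them 256 genes were higher in members (1.81%) and 339 lower (2.4%), or 29 and 28 without the library term. Of the trophocyte markers 4 rose (Cd34, Ackr4, C3 and Dpt) and none fell. Dpt had 73.2 and 174 CPM in members against 18.5 and 44.9 CPM (log2 fold change 2.01 ± 0.21, adjusted p = 0.000675, edgeR, n = 2), and Ackr4 had no UMI in the other class, so that no fold is given. Grem1 did not pass (0.51 ± 0.17, adjusted p = 0.145). Members were higher in the carboxylesterases Ces1d (68.6 and 113 CPM against 4.64 and 8.49 CPM, 3.81 ± 0.28, adjusted p = 0.000147) and Ces1g (3.54 ± 0.31), whose family members have similar sequences, and in Scara5, a ferritin receptor of universal fibroblasts (3.08 ± 0.35). They were lower in Spp1, osteopontin, at 1298 and 330 CPM against 9407 and 4310 CPM (-3.34 ± 0.42, adjusted p = 0.00172), in Cthrc1, a secreted protein of activated fibroblasts (-2.84 ± 0.23), and in Thy1, the surface antigen CD90 (-2.00 ± 0.15). Of 16 cholesterol synthesis genes 10 were lower and none higher. Foxf1, a gut mesenchyme factor, was higher in members, at 94.4 CPM in both libraries against 32.5 and 35.2 CPM (1.49 ± 0.13, adjusted p = 0.000256).

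Among Cd81 fibroblasts that met every other condition, transcripts were followed along the cell's own Rspo3 UMIs, from 0 and 1 to the members' 2, 3 to 4 and 5 or more. Grem1 went from 615 over 792, 1035 and 1258 to 1657 CPM in replicate 1 and from 539 over 715, 748 and 850 to 1027 CPM in replicate 2. C3 went from 91.8 to 266 CPM in replicate 1 and from 281 to 564 CPM in replicate 2, and Dpt from 28.6 to 85.8 CPM and from 94.2 to 191 CPM. The acute-phase gene Saa3 went from 721 to 3493 CPM and from 1140 to 2236 CPM. These 4 transcripts were thus highest in the cells with the most Rspo3 in both libraries, and each was already higher at 1 UMI than at 0, below the members' limit of 2. Mgp was not highest there (641 CPM in replicate 1 and 851 CPM in replicate 2 at 5 or more UMIs, against 1114 and 968 CPM at 0), and Bmp4 stayed between 100.5 and 133 CPM. Of the other trophocyte markers followed, Cd34, Il33 and Fgf7 were higher at 5 or more UMIs than at 0 in both libraries. Ackr4 went the other way in both, from 14.9 to 9.44 CPM and from 3.13 to 1.97 CPM. Ly6a fell in replicate 1 (204 to 157 CPM) and rose in replicate 2 (349 to 395 CPM). Median depth was also highest in the last group, at 16923 UMIs in replicate 1 and 14186 UMIs in replicate 2 against 12999.5 and 12300 UMIs at 0, and its part was not tested. The groups held 419 to 1364 cells in replicate 1 and 640 to 877 cells in replicate 2, and since cells of 1 library are no replicates the values are a description.

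**Figure D4:**
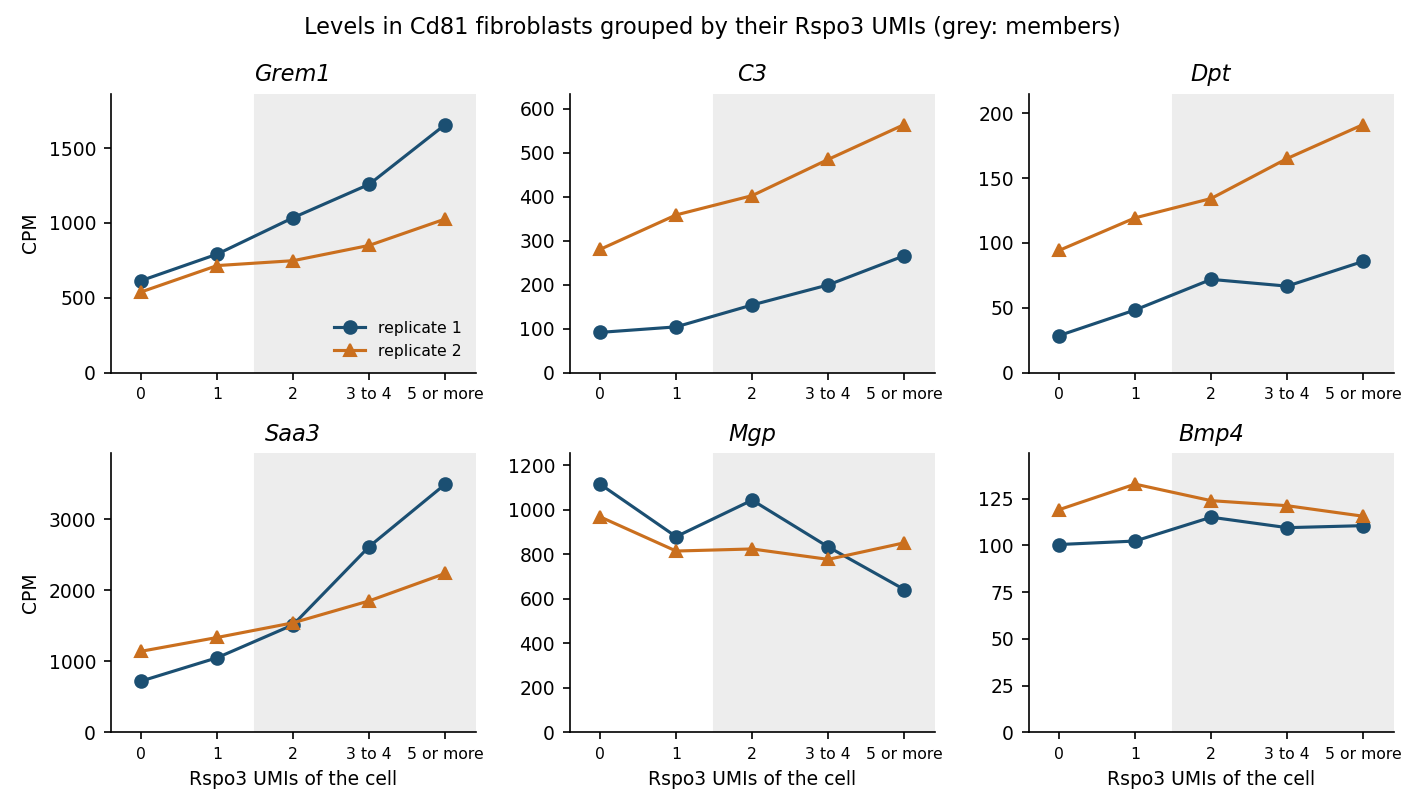
Summed CPM of 6 genes (linear axes from 0) in Cd81 fibroblasts grouped by their Rspo3 UMIs, with a line for each library and grey shading over the groups that belong to the members. Grem1, C3, Dpt and Saa3 are highest at 5 or more Rspo3 UMIs in both libraries, Grem1 at 1657 and 1027 CPM, while Mgp and Bmp4 are not.

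The members of both libraries differed from each other in some transcripts. Of 3898 well-measured genes (log2 CPM averaging 5 or more), 44 were at least 2-fold higher in members of replicate 2 and 26 in members of replicate 1, and 34 and 17 of these differed likewise in the other fibroblasts. Ifi27l2a, an interferon-induced gene, was at 194 CPM in replicate 1 and 1428 CPM in replicate 2. The proteoglycan gene Lum was at 51.3 and 278 CPM and the chemokine Cxcl12 at 178 and 577 CPM. The heat-shock gene Hspa1a, at 340 and 1067 CPM, and the immediate early gene Fos, at 268 and 820 CPM, were likewise higher in replicate 2. Igfbp5 was at 378 and 57.7 CPM and the cytokine Il11 at 202 and 36.7 CPM. With 1 library of each number, the mouse, the culture and the library cannot be told apart.

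Within each library the members' own variation was spread over many genes. The leading axis of 1500 variable genes held 6.52% of the variance in replicate 1 and 6.37% in replicate 2, with Actb, Lgals1, Nme1 and Ran at one end and Apoe, Gas5 and Txnip at the other, and 15 and 9 of the 20 leading genes of the ends were shared by the libraries. It went with depth (r = 0.41 over 1497 cells and 0.52 over 2189 cells with log depth, cells of 1 library each). The second axis, with 2.99% and 2.40% of the variance, had the glycolysis genes Gapdh, Aldoa, Ldha, Pgk1 and Mif at one end and Vcan, Lrp1 and Pdgfra at the other, and shared 18 and 9 of 20 leading genes (r = -0.27 and -0.21 with log depth). The third, with 2.16% and 1.85%, set Vegfa, Bnip3 and Mt2, genes induced by low oxygen or metals, against Sfrp1, Igfbp7, Fbln1 and Tmem176b, with 13 and 10 of 20 shared, and it too went with log depth (r = 0.39 and 0.35).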

How the data were processed

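Droplet single-cell libraries of mouse colon assembloid stroma (2) and of epithelium (6) were used. The authors deposited whole-number UMI counts per gene and barcode from Cell Ranger, version 6.0.1 for stroma and 7.1.0 for epithelium per the file headers, mapped to mm10. These counts were summed per stromal library and class into 8 sums and fitted in 1 model with edgeR 4.0.16 (R 4.3.3; TMM scaling, filterByExpr, quasi-likelihood F test, Benjamini-Hochberg over 14132 genes), with class and library as terms, since classes are cells of the same libraries. Sums of 1 library deviated together (r between 0.19 and 0.76 over 6 pairs of classes, across genes). Residual degrees of freedom were 3, and the biological coefficient of variation was 7.06%. Each SE of a log2 fold change was computed from the fold change and the F statistic of the test. It is not the spread between the 2 libraries. The 18 genes of the rule were not tested. CPM values use TMM-scaled library sizes, except along Rspo3 UMIs and around the Cd81 limit, where they use the cells' unscaled UMI totals. With the library as a term, p-values measure how the differences between classes varied between these 2 libraries. They do not measure the spread between the libraries themselves. Classes were set by the cells' own UMIs, and the members and gene lists were chosen with earlier results of these data known.

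Named were genes of the trophocyte, telocyte, Wnt ligand, BMP antagonist and BMP ligand lists with a mean of at least 5 CPM in a class, up to 3 called genes a direction of each other list, and the 10 highest and 10 lowest called genes of each comparison averaging 5 or more in log2 CPM, with no overlap between classes, without mitochondrial, ribosomal and Gm or Rik genes. A few names outside this rule are given where a list's calls are named in full. Doublets were not called. Cells were barred by Epcam, and the fit was repeated without the 6% of cells with the most UMIs. Other alternatives were DESeq2 1.42.0, no filter on low counts, no library term, a fold limit, 5% mitochondrial UMIs, 1000 genes, other Rspo3 limits, and cells within the interquartile range of the members' depth. Thinning drew 5000 UMIs per cell without replacement. Gene positions are those of GENCODE M21 on GRCm38. Some members of the lists are not reported here by name.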

Additional observations from a re-analysis of the deposited data

Results flagged for a closer look

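The rule was also applied to the 6 epithelial libraries, which no comparison above uses. In the assembloid epithelium 14 cells of replicate 1 and 18 cells of replicate 2 met it, or 6.33% and 15% of the 221 and 120 Col1a2 fibroblasts there, among 29410 and 7722 passing barcodes. None met it in the organoid and tissue epithelium, which held 0 Col1a2 fibroblasts of any kind and where 3 cells, the limit that a count of 0 allows, would be 0.0373 to 0.0696% of the passing barcodes. The cells were 0.0476% of the passing barcodes in replicate 1, within that range, and 0.233% in replicate 2, above it. In these assembloid libraries themselves 3 cells would be 0.0102% and 0.0389% of the passing barcodes. Since the organoid and tissue libraries held no such fibroblasts, no cell there could meet the rule. With fewer than 20 cells a library, their transcripts were not compared.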

How the results depend on the processing

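Without the replicate block, that is without pairing classes of the same library, the genes called higher and lower in members were 451 and 450 against BMP-ligand fibroblasts (1938 and 1870 with it), 0 and 0 against other fibroblasts (18 and 62) and 29 and 28 against Mfap5 Crabp1 Gdf10 fibroblasts (256 and 339). Called only at a log2 fold change of at least 1, they were 692 and 571, then 5 and 44, then 143 and 175. With weakly expressed genes kept, 146 and 330 genes differed from other fibroblasts and 659 and 560 from Mfap5 Crabp1 Gdf10 fibroblasts. At most 5% mitochondrial UMIs left 6 and 39 against other fibroblasts, and at least 4 Rspo3 UMIs gave 36 higher. Cells within the interquartile range of the members' depth gave 110 and 141 against Mfap5 Crabp1 Gdf10 fibroblasts, where DESeq2 called 624 lower. The causes were not tested. The mean share of members was 9.27% at 4 or more Rspo3 UMIs, 29.0% at 1 or more and 5.53% under the rule after thinning, and 16.6 to 24.2% when either library was left out. Of 200 values of named genes, 178 called, 8 of the 22 not called changed sign in 1 library. The 178 were called from these same libraries, so that their unchanged sign within each is no sign of stability. Calls lost were 105 without the block, 16 at matched depth, 10 at 5% mitochondrial UMIs, 5 with DESeq2, 4 at 4 Rspo3 UMIs and 3 without the deepest cells. The 1 called value that reversed was Cxcl14 against Mfap5 Crabp1 Gdf10 fibroblasts, from -1.96 to 0.32 (adjusted p = 0.912, edgeR) at matched depth. With either library left out no residual degrees of freedom remained, so that these are values with no test, and the 51 and 39 Mfap5 Crabp1 Gdf10 cells limit genes of low level.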

Other observations

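Among the 18 genes that edgeR's quasi-likelihood test called higher in Rspo3 fibroblasts than in other fibroblasts, several lay outside every list, and those given here were chosen after their values were seen. Ccng1, cyclin G1, a known target of p53, had 151 and 99.8 CPM in members against 109 and 76.8 CPM in other fibroblasts (log2 fold change 0.43, adjusted p = 0.0335, edgeR). Prelp, a leucine-rich matrix proteoglycan, had 87.6 and 152 CPM against 53.8 and 115 CPM (0.55, adjusted p = 0.0228), and Fmo2, a flavin monooxygenase, had 17.2 and 22.6 CPM against 6.75 and 12.7 CPM (1.08, adjusted p = 0.0193). Mcpt8, a protease gene known from basophils, had 54.0 and 5.05 CPM against 21.2 and 2.91 CPM (1.20, adjusted p = 0.00232), while Ptprc, the pan-leukocyte gene, was at 0 in members of both libraries. Members were higher in each library for all 4 genes.

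Fibroblasts with at least 2 Rspo3 UMIs that met the rest of the rule but had 0 to 2 Cd81 UMIs numbered 175 in replicate 1 and 479 in replicate 2. Their Grem1 level was 1131 and 985 CPM and their C3 level 102 and 372 CPM, beside 1278 and 938 CPM and 118 and 483 CPM in the members with 3 Cd81 UMIs. The same Rspo3 and Cd81 limits were also met by 778 and 602 cycling fibroblasts and by 75 and 501 fibroblasts with interferon-induced genes, which the rule left out.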
